A study of Arabidopsis thaliana with 8 samples.

Results

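The genes described here are the xyloglucan endotransglucosylase/hydrolases (XTH) and the expansins of Arabidopsis thaliana. These families of secreted proteins hold members that loosen the primary cell wall. The name wall-loosening genes is used here by family and not for a shown activity of each gene. The genes were taken as every locus whose deposited symbol was XTH, EXPA, EXPB, EXLA or EXLB followed by a number. Among the 36917 deposited loci 69 matched, the root hair expansins EXPA7 and EXPA18 were left out, and 67 genes were kept, made up of 33 XTH, 22 EXPA (alpha-expansins), 6 EXPB (beta-expansins), 3 EXLA and 3 EXLB genes (expansin-like A and B). Total RNA of whole seedlings, 5 days old, was sequenced in 8 libraries, 2 for each of 4 groups. The groups were wild type (Col-0) on Murashige and Skoog (MS) medium, wild type on MS medium with lincomycin at 50 µg/ml, irx3-2 on MS medium, and irx3-2 on MS medium with lincomycin at that dose. All 4 groups had 1% sucrose in the medium and constant white light (100 µmol photons m-2 s-1). The mutant irx3-2 carries an allele of the gene for CESA7, a cellulose synthase subunit of secondary walls, and lincomycin blocks translation on plastid ribosomes.

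Xyloglucan is the main hemicellulose of the primary wall in this plant and binds cellulose microfibrils. XTH enzymes cut a xyloglucan chain and join the new end to another chain or, in a few members, to water. Expansins loosen the contacts between wall polymers without cutting them and act best at acid pH, which plasma membrane proton pumps provide. Many genes of both families are read in a few cell types only, such as root hairs, or respond to touch, brassinosteroid or auxin.

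The deposited values were normalized counts, which are reads per gene divided by a size factor for each library. The libraries held 15032240 to 19488440 counted reads, and 1 read was worth 0.588 to 1.77 normalized counts. Reads of plastid genes were 54.1 to 58.1% of the total on MS medium and 18.8 to 20.7% on lincomycin. The log2 values of the 2 libraries of a group had a Pearson correlation of 0.950 to 0.984 across genes. Nothing in the labels ties the 2 libraries of a group to separate plates or sowings, so a p-value here sets a difference against the spread of these libraries alone, which may be technical. The transcript of CESA7 was present in irx3-2, at 712 and 711 normalized counts on MS medium against 265 and 278 in wild type (log2 difference 1.39 ± 0.16 (SE), adjusted p = 0.0076 in limma). It was thus higher in the libraries labelled irx3-2, and counts per gene do not show the lesion.

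Of the 67 genes 47 passed the filter, which asked for 10 or more normalized counts in 2 or more libraries, namely 27 XTH, 14 EXPA, 2 EXPB, 3 EXLA and 1 EXLB gene. A further 15 were below it, with no value above 15.3 normalized counts. XTH2, EXPA22, EXPA25, EXPB4 and EXPB6 were at 0 in every library. Each library's limit for a count of 0 (3 reads) was 1.77 to 5.31 normalized counts. EXLA3, EXPA2, EXPB1, XTH13 and XTH26 passed the filter only through 1 medium or 1 genotype, so their place among the tested genes is not independent of their pattern. EXPA20 and EXPA21 overlap other genes over 86.3% and 40.3% of their exon length, and EXPA22, EXPA23 and EXPA25 share 33.3%, 52.2% and 51.5% of their 50-base windows with other loci, so the low or 0 values of these 5 genes are not read as absence. XTH15 overlaps a gene on the opposite strand over 31.6% of its exon length and is reported as uncertain, since the strand setting of the counting is not given in the sources used here.

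Levels were compared between genes only as normalized count per kb of exon. XTH4 and XTH7 were highest, with means over all libraries of 3342 and 3319.9 normalized counts per kb. XTH4 (EXGT-A1) is an endotransglucosylase of growing and secondary-wall-forming tissue. EXPA1 followed with 1973, XTH9 with 1243, XTH31 with 1119, EXPA6 with 1096, XTH6 with 867 and XTH28 with 781 normalized counts per kb. The XTH genes summed to 15619 normalized counts per kb for wild type on MS medium, 16497 for wild type with lincomycin, 16645 for irx3-2 on MS medium and 13308 for irx3-2 with lincomycin (means of 2 libraries). In the 2 irx3-2 libraries on lincomycin the XTH sum was 12948 and 13668, below each of the other 6 libraries, which lay between 14990.2 and 17137. XTH4 and XTH7 weigh heavily in this sum. Between wild type on MS medium and irx3-2 with lincomycin XTH4 went from 3545 to 2603 per kb. XTH7 went from 3648 to 2302, so the sum does not show a fall of the whole family. The EXPA genes summed to 6495, 5462, 6795 and 4616 normalized counts per kb in the same order of groups, and their irx3-2 lincomycin libraries were again below all others. EXPA1 weighs heavily there, with 2347 per kb for wild type on MS medium and 1436 for irx3-2 with lincomycin. The EXPB sums were 478 on MS medium and 176 on lincomycin in wild type, and 566 and 156 in irx3-2.

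**Figure D1:**
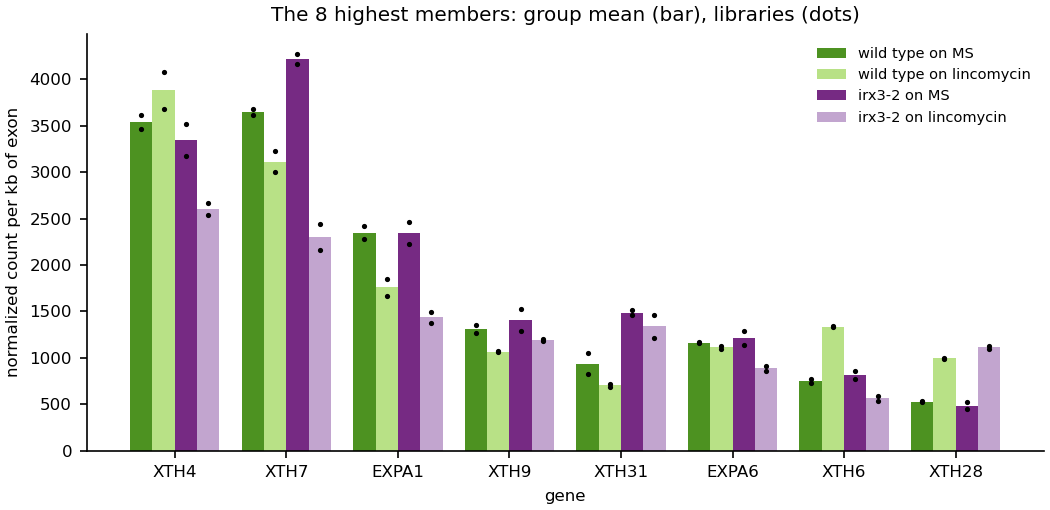
Mean normalized count per kb of exon (bars, axis from 0) for the 8 genes with the highest means, with each library as a dot, in wild type and irx3-2 on MS medium and on lincomycin. XTH4 and XTH7 stand above the others, XTH6 is highest in wild type on lincomycin, and XTH28 is higher on lincomycin in both genotypes.

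The question of the first comparison was how the wall-loosening genes of wild-type seedlings differed on lincomycin. XTH22 (TCH4), a touch-induced endotransglucosylase, rose most, and XTH13, XTH26, EXPB1, XTH20, XTH12 and EXLB1 fell most. XTH13, XTH26 and EXPB1 passed the filter through MS libraries alone, so the filter favoured a fall in these genes. Of the 47 tested genes 27 were called (adjusted p below 0.05 in limma), 9 higher and 18 lower, where 29.2% of all 20251 tested genes were called, 12.0% higher and 17.2% lower. The median log2 change was -0.36 over the tested wall-loosening genes and 0.02 over all tested genes. By family 7 XTH genes rose and 9 fell of 27, 1 EXPA gene rose and 6 fell of 14, both EXPB genes and EXLB1 fell, and EXLA1 rose. A call with a change of at least 2-fold was made for 11 of the 47, and for 14.9% of all tested genes.

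XTH22 had 542 and 309.9 normalized counts in wild type on MS medium and 1571 and 1565 on lincomycin. All lincomycin libraries were above all MS libraries, and the log2 change was 1.93 ± 0.22 (SE, limma adjusted p = 7.67e-05), a 3.82-fold rise. XTH23, a close relative of XTH22, went from 149 and 149.9 to 358 and 429 (log2 change 1.39 ± 0.16, adjusted p = 8.02e-05). Among the others, XTH32, a member of the XTH clade that holds the hydrolase XTH31, went from 305 and 314 to 596 and 576 (0.92 ± 0.13, adjusted p = 0.000429). XTH28, which is needed for growth of stamen filaments, went from 804 and 777 to 1481 and 1490.1 (0.91 ± 0.11, adjusted p = 8.65e-05). In each of these 4 genes both lincomycin libraries were above both MS libraries. XTH24 (MERI5), known from the shoot meristem, had 757 and 546 on MS medium and 1059.8 and 1274 on lincomycin (0.85 ± 0.17, adjusted p = 0.00366), and lost its call without wild-type lincomycin replicate 3 (adjusted p = 0.0574). The remaining rises were XTH6 at 0.84, EXLA1 at 0.82, EXPA3 at 0.46 and XTH8 at 0.35 on the log2 scale.

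EXLB1, an expansin-like B gene, had 279 and 323 normalized counts in wild type on MS medium and 53.5 and 61.5 on lincomycin (log2 change -2.37 ± 0.27, adjusted p = 8.31e-05 in limma). EXPB1 went from 55.2 and 52.4 to 8.24 and 4.92 (-2.89 ± 0.55, adjusted p = 0.00259). EXPB3, the more abundant beta-expansin, went from 939 and 911 to 378 and 341 (-1.36 ± 0.13, adjusted p = 1.62e-05). In each of these 3 genes every lincomycin library was below every MS library. EXPA11 fell by 1.12, EXPA8 by 0.92 and EXPA1 by 0.42 on the log2 scale. Alpha-expansins that did not pass the test included EXPA5 (0.15, adjusted p = 0.497), which takes part in brassinosteroid-dependent growth, EXPA10 (0.01, adjusted p = 0.984), which takes part in leaf growth, and EXPA6 (-0.07, adjusted p = 0.653). In fits that left out each library in turn 16 of the 27 calls held throughout, and without wild-type lincomycin replicate 3 the count was 16, where 16.4% of all genes were called.

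Some XTH genes known from roots or root hairs were picked out. XTH12, XTH13, XTH14, XTH17, XTH20 and XTH26 fell in wild type, and XTH18 and XTH19 did not pass the test (-0.12 and 0.52 on the log2 scale). This grouping was made after the values were seen and is not a full list of XTH genes read in roots. XTH13 and XTH26 passed the filter through MS libraries alone, so the filter favoured their fall. XTH26, read in root hairs, had 115 and 81.5 normalized counts on MS medium and 7.06 and 7.38 on lincomycin (log2 change -3.57 ± 0.69, adjusted p = 0.00291 in limma). XTH20, read in roots, went from 47.5 and 61.1 to 7.65 and 9.84 (-2.50 ± 0.41, adjusted p = 0.00107). XTH14, known from root hair initiation sites, went from 383 and 234 to 74.7 and 98.4 (-1.79 ± 0.31, adjusted p = 0.0013). The libraries of the 2 media did not overlap in any of these genes. XTH12 had 144 and 78.6 on MS medium and 28.8 and 12.9 on lincomycin (-2.40 ± 0.68, adjusted p = 0.0224), and its call was lost without wild-type MS replicate 2 (0.135) or wild-type lincomycin replicate 3 (0.186). XTH13 had 65.9 and 49.5 on MS medium and 1.18 and 1.23 on lincomycin, which is 2 reads in each lincomycin library. Its fitted log2 change of -4.72 ± 1.28 (adjusted p = 0.0179) depends on the pseudocount, being -3.32 with a pseudocount of 5, and the call was lost without any of the 4 wild-type libraries (adjusted p from 0.0582 to 0.0990).

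Root hair markers, taken as a sum, were lower on lincomycin in wild type too. Their sum over 6 genes was 300.3 and 199 normalized counts in wild type on MS medium and 52.4 and 65.8 on lincomycin, and in irx3-2 it was 103 and 242 on MS medium and 62.5 and 101 on lincomycin. Of the 6 markers 3 fell in wild type (PRP3, RHD2 and LRX1) and 0 were called in irx3-2. The defining regulator RHD6 was near the limit of counting, with 10.7 and 8.73 on MS medium and 2.35 and 6.15 on lincomycin in wild type. Fewer root hair cells and less RNA per cell cannot be told apart in RNA of whole seedlings, and the part of the markers in these results was not tested. The irx3-2 MS replicate 1 stood low for XTH12 (24.8 against 124 in replicate 2), XTH13 (0 against 31.9), XTH26 (8.26 against 47.8) and the marker sum. In irx3-2 XTH26 was at 5.68 and 6.53 on lincomycin and its change was not called by limma (-1.58 ± 0.69, adjusted p = 0.103), and XTH13 was not called either (0.13 ± 1.28, adjusted p = 0.947). XTH12, XTH14, XTH17 and XTH20 were called lower in irx3-2 as in wild type. The median log2 change of the 6 markers in irx3-2 was -0.86, so their lack of calls is not a lack of change.

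**Figure D2:**
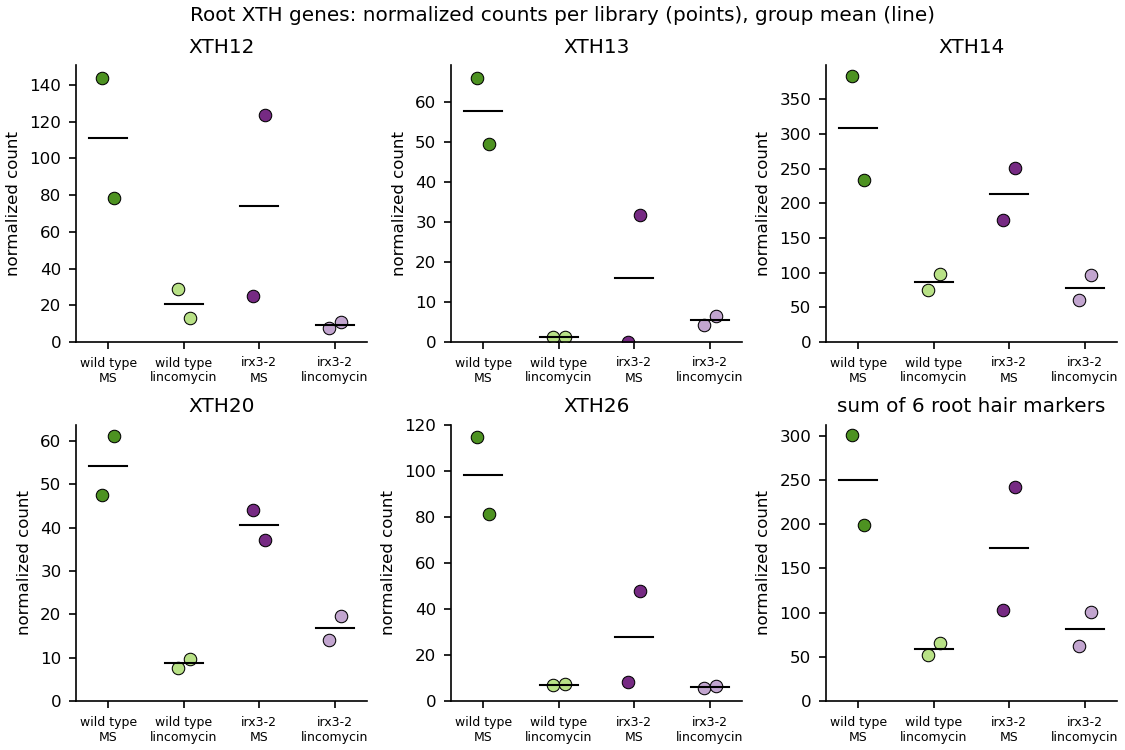
Normalized counts per library (points) and group means (lines) of XTH12, XTH13, XTH14, XTH20 and XTH26 and of the sum of 6 root hair markers, on axes from 0. Wild-type libraries on MS medium are above those on lincomycin in all 6 panels, while irx3-2 on MS medium has 1 library low for XTH12, XTH13, XTH26 and the markers.

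In irx3-2 the response to lincomycin was mostly downward. Of the 47 tested genes 25 were called by limma, 4 higher and 21 lower, where 33.8% of all tested genes were called, 15.8% higher and 18.0% lower. The median log2 change was -0.45, against 0.04 over all tested genes. The 4 that rose were all XTH genes, and 12 XTH genes, 5 EXPA genes, both EXPB genes, EXLA1 and EXLB1 fell. Calls with a change of at least 2-fold numbered 14 of the 47, and 17.2% of all tested genes had one. Leaving out each library in turn kept 15 of the calls, and without irx3-2 lincomycin replicate 2 the count was 16, where 18.9% of all genes were called.

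XTH32 had 358 and 449.5 normalized counts in irx3-2 on MS medium and 1006 and 915 on lincomycin (log2 change 1.26 ± 0.13, adjusted p = 3.90e-05). XTH28 went from 664 and 779 to 1689.8 and 1629 (1.21 ± 0.11, adjusted p = 9.30e-06). XTH22 went from 487 and 572 to 976 and 763 (0.71 ± 0.22, adjusted p = 0.0307), without overlap between the media. That call was lost without either wild-type lincomycin library, irx3-2 MS replicate 1 or irx3-2 lincomycin replicate 2 (adjusted p from 0.0614 to 0.229). XTH8 rose by 0.41 ± 0.12 on the log2 scale (adjusted p = 0.0234) and lost its call without irx3-2 MS replicate 1 or either irx3-2 lincomycin library (adjusted p from 0.0638 to 0.164).

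Among the falls in irx3-2, EXPB1 went from 42.7 and 119 normalized counts to 7.81 and 5.23 (log2 change -3.29 ± 0.55, limma adjusted p = 0.000969). EXLB1 went from 300.2 and 276 to 32.6 and 60.8 (-2.66 ± 0.27, adjusted p = 3.14e-05). EXPA11 went from 774 and 621 to 163 and 173 (-2.04 ± 0.15, adjusted p = 1.90e-06). EXPA8 had a log2 change of -2.12. Each of these genes also fell in wild type. The filter favoured a fall of EXPB1, which passed it through MS libraries alone. XTH12 fell by 2.46 ± 0.68 (adjusted p = 0.0174), with a call lost without irx3-2 MS replicate 2 or either irx3-2 lincomycin library (adjusted p from 0.0568 to 0.120). XTH15 fell by 1.81 ± 0.51 (limma adjusted p = 0.0195), with a call lost without irx3-2 MS replicate 2 or lincomycin replicate 2. If the counting ignored strand, its count may be altered by the gene that overlaps it, in a direction that is not known.

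The lincomycin comparisons of the 2 genotypes share no library. The 4 genes called higher in irx3-2 (XTH8, XTH22, XTH28 and XTH32) were called higher in wild type too, which is 44.4% of the 9 of wild type and 100% of the 4. Over all tested genes the shared rises were 66.5% of those of wild type and 50.5% of those of irx3-2. Of the falls 13 were in both lists, 72.2% of the 18 of wild type and 61.9% of the 21 of irx3-2, and they included EXPA1, EXPA8, EXPA11, EXPA15, EXPB1, EXPB3, EXLB1, XTH12, XTH14, XTH17, XTH20, XTH27 and XTH30. Over all tested genes the shared falls were 72.2% and 69.3%, against the 72.2% and 61.9% of the wall-loosening genes. EXLA1 and XTH6 were called higher in wild type and lower in irx3-2, 2 of the 9 rises of wild type, against 19 of the 2431 over all tested genes.

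**Figure D3:**
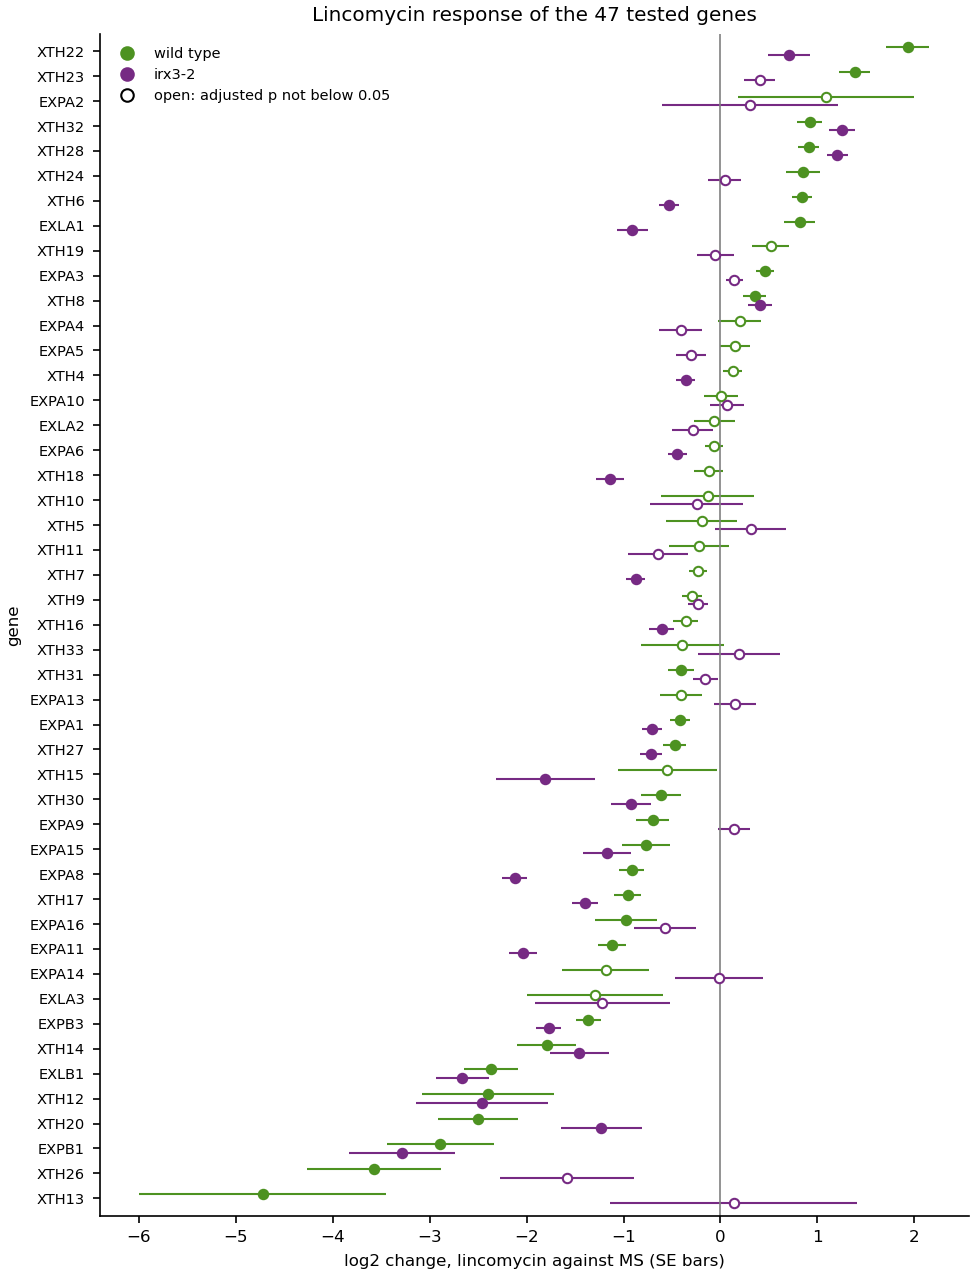
Log2 change on lincomycin against MS medium with SE bars for the 47 tested genes, wild type in green and irx3-2 in purple, sorted by the wild-type change, with open points where the adjusted p was not below 0.05. XTH22 leads the rises in wild type at 1.93, XTH32 those in irx3-2 at 1.26, and EXLA1 and XTH6 have filled points on opposite sides of 0.

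The upstream sequences of 5 genes are shown. They are EXLA1, XTH6 and EXPA8, whose response differed between the genotypes by limma, and the touch-related XTH22 and XTH23, whose interactions limma did not call. Each is the 250 bases before the annotated transcript start, read 5′ to 3′ on the gene's strand from RefSeq TAIR10.1. The positions are chr3:16895916-16896165 on the plus strand for EXLA1, chr5:26298478-26298727 on the plus strand for XTH6, and chr2:16950706-16950955 on the minus strand for EXPA8. XTH22 is at chr5:23308681-23308930 on the minus strand and XTH23 at chr4:13128144-13128393 on the plus strand. Capitals mark matches on either strand to the core of the rapid stress response element or to the brassinosteroid response element, 2 motifs described below.
EXLA1: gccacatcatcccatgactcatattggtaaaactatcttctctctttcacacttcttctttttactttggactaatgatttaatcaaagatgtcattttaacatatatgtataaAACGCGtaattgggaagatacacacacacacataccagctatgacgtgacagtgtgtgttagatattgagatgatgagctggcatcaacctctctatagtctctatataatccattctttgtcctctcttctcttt
XTH6: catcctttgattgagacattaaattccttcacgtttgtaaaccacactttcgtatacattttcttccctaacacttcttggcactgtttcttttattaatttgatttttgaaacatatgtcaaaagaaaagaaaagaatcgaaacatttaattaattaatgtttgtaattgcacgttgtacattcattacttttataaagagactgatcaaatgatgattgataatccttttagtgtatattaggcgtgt
EXPA8: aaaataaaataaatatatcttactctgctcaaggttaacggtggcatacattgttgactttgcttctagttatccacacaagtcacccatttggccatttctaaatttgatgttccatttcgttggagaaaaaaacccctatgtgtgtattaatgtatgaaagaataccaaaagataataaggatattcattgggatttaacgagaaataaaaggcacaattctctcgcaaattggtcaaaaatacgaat
XTH22: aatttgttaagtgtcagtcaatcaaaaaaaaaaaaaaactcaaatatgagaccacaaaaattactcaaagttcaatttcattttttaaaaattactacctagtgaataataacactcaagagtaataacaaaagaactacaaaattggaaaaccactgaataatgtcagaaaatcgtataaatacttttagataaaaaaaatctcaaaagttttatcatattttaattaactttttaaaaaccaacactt
XTH23: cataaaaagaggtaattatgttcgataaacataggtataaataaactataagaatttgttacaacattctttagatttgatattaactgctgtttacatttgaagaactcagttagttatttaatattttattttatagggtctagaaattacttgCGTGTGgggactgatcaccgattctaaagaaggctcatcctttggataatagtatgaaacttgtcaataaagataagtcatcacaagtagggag

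In these windows EXLA1 held the letters CGCGTT of the rapid stress response element, as AACGCG, 131 bases before the start. XTH23 held CGTGTG, a form of the brassinosteroid response element, 89 bases before the start. The other 3 windows held neither. Over the 47 tested genes CGCGTT, searched on both strands, was in 6 windows (12.8%, namely EXLA1, EXLA3, EXPA6, XTH13, XTH18 and XTH20) and in 2.78% of the 20046 tested genes with a window. CGTGTG was in 6 windows (12.8%) against 5.45%, CGTGCG in 1 (EXPB3) against 1.69%, the G-box CACGTG in 0 against 7.35%, and TATAAA in 26 (55.3%) against 45.7%. A match describes the letters in the window and is not a shown binding site, and a window without a match says nothing about the factor.

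The interaction asked whether the lincomycin response differed between the genotypes, as the response in irx3-2 minus that in wild type. EXLA1, XTH6 and EXPA8 were called by limma, all 3 more negative in irx3-2, of 47 tested, which is 6.38%, where 0.657% of all tested genes were called, 0.356% higher and 0.301% lower. At an unadjusted p below 0.05 there were 16 of the 47, and 12.6% of all tested genes. The median interaction of the tested wall-loosening genes was -0.30 on the log2 scale, against 0.03 over all tested genes, and 30 of the 47 were below 0, as were 9519 of 20251.

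EXLA1, an expansin-like A gene, had 133 and 137 normalized counts in wild type on MS medium and 228 and 249 on lincomycin. In irx3-2 it had 249 and 241 on MS medium and 122 and 139 on lincomycin. Wild type on lincomycin and irx3-2 on MS medium were thus high, and the other 2 groups low, with no overlap between the high and low groups. The interaction was -1.72 ± 0.23 on the log2 scale (limma adjusted p = 0.0101), and leaving out a lincomycin library of either genotype ended the call (adjusted p from 0.0579 to 0.119). Its neighbour EXLA3 ends 2012 bases before the start of EXLA1 on chromosome 3. EXLA3 had 9.19 and 5.82 in wild type and 11 and 17.7 in irx3-2 on MS medium. Over the 4 lincomycin libraries it had 2.35 to 5.68. It was not called (interaction 0.07 ± 0.99), and it passed the filter through irx3-2 MS libraries alone.

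XTH6, a XTH gene that is abundant per kb, had 1129 and 1069 normalized counts in wild type on MS medium and 1953 and 1980.00 on lincomycin. In irx3-2 it had 1136 and 1265 on MS medium and 789.9 and 874 on lincomycin. The MS libraries of the genotypes lay close together, and on lincomycin wild type was above and irx3-2 below all of them. The interaction was -1.37 ± 0.15 (limma adjusted p = 0.00339), lost without wild-type lincomycin replicate 1 (0.0514) or replicate 3 (0.0559). EXPA8, an alpha-expansin, fell in both genotypes. It had 686 and 687 in wild type on MS medium and 366 and 360.2 on lincomycin, and 797 and 812 in irx3-2 on MS medium and 203 and 167 on lincomycin. The interaction was -1.20 ± 0.18 (adjusted p = 0.0181), and the call was lost in 6 of 8 fits with a library left out, all but those without an irx3-2 MS library (adjusted p from 0.0507 to 0.144).

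XTH22 and XTH23 had smaller log2 changes in irx3-2 (0.71 and 0.41) than in wild type (1.93 and 1.39), but their interactions were not called by limma. They were -1.22 ± 0.31 for XTH22 (adjusted p = 0.121) and -0.98 ± 0.23 for XTH23 (adjusted p = 0.0925). XTH23 had 216 and 182 normalized counts in irx3-2 on MS medium and 263 and 263 on lincomycin. DESeq2 called the XTH22 interaction at -1.16 (adjusted p = 0.00931) and also those of XTH18, XTH7 and EXPA11, and edgeR added XTH18 alone (adjusted p = 0.0424). The touch list held 2 other genes, for calmodulin-like proteins, both called lower by limma in irx3-2 than in wild type on lincomycin. TCH2 rose in wild type, from 309 and 307 to 569.6 and 580.3 (0.90 ± 0.14, adjusted p = 0.000777 in limma), and had 296 and 274 and then 411 and 325 in irx3-2, without a call (0.36 ± 0.14, adjusted p = 0.0755). TCH3 had 432 and 320.1 in wild type on MS medium and 465 and 613 on lincomycin, and 311 and 393 in irx3-2 on MS medium and 90.1 and 94.7 on lincomycin. The irx3-2 lincomycin libraries were below all others, and its interaction was -2.43 ± 0.28 (adjusted p = 0.00508), lost without wild-type lincomycin replicate 3 or irx3-2 lincomycin replicate 2 (adjusted p at most 0.0716).

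**Figure D4:**
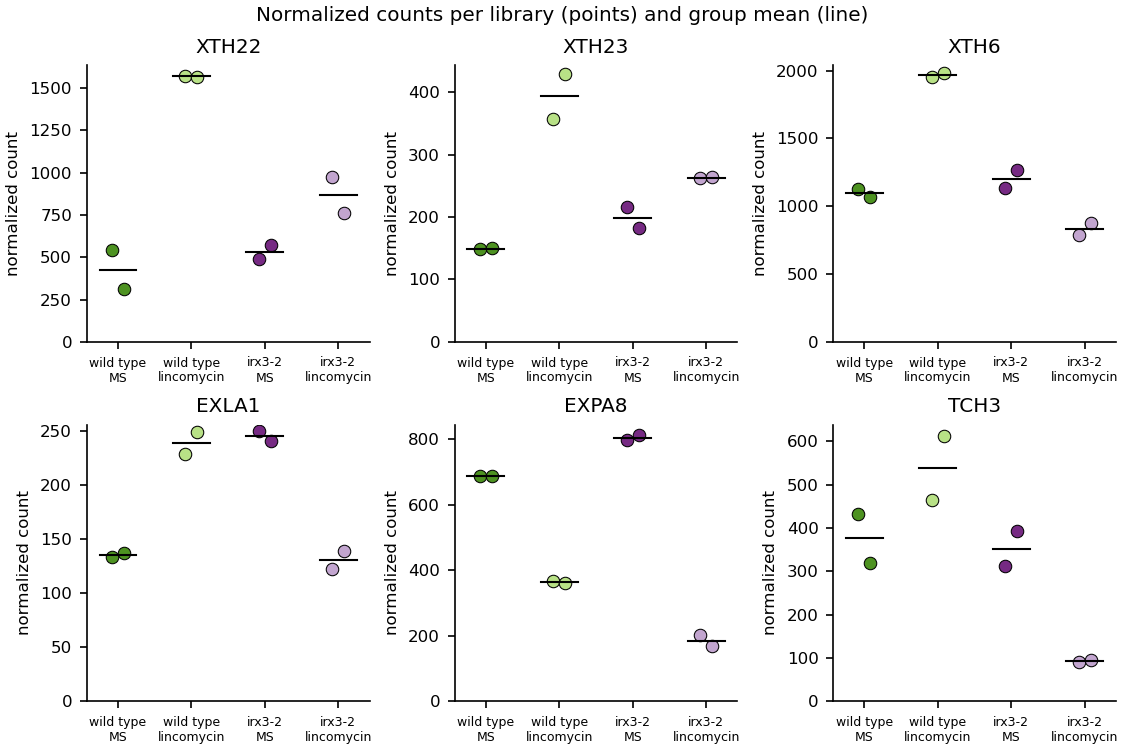
Normalized counts per library (points) and group means (lines) of XTH22, XTH23, XTH6, EXLA1, EXPA8 and TCH3 in the 4 groups, on axes from 0. XTH6 is highest in wild type on lincomycin and lowest in irx3-2 on lincomycin, EXLA1 is high in wild type on lincomycin and in irx3-2 on MS medium, and TCH3 is lowest in irx3-2 on lincomycin.

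Several of these genes lie side by side on the genome with different responses in wild type. XTH12, XTH13, XTH25 and XTH22 stand in this order on the minus strand of chromosome 5 (23300321 to 23308680, TAIR10.1), with 565 to 1097 bases between neighbours. XTH12 and XTH13 fell on lincomycin, XTH25 was below the filter with at most 9.80 normalized counts, and XTH22 rose. XTH23 and XTH14 are 363 bases apart on the plus strand of chromosome 4 (13128394 to 13131860), and XTH23 rose while XTH14 fell. On the minus strand of that chromosome (14819192 to 14830224) lie XTH24, XTH18 and XTH19. XTH24 rose in wild type, and XTH18 (-0.12, adjusted p = 0.576) and XTH19 (0.52, adjusted p = 0.0607) did not pass the test. In irx3-2 XTH18 fell by 1.14 ± 0.15 (adjusted p = 0.000156) and XTH19 did not pass (-0.05, adjusted p = 0.856). XTH18 and XTH19 share 1.57 and 1.63% of their 50-base windows with other loci, and how multi-mapping reads were counted is not given in the sources used here.

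Between the genotypes on MS medium limma called 0 of the 47 wall-loosening genes, where 0.217% of all tested genes were called, 0.158% higher and 0.0593% lower. At an unadjusted p below 0.05 there were 10 of 47, and 13.5% of all tested genes. For the adjusted p edgeR called 0 and DESeq2 called XTH31 (log2 difference 0.66, adjusted p = 0.00419). The authors' deposited table called that gene alone as well. XTH31, which acts mainly as a xyloglucan hydrolase, had 1463 and 1155 normalized counts in wild type and 2029.6 and 2115 in irx3-2 (0.67 ± 0.13, limma adjusted p = 0.0933), and EXLA1 differed by 0.85 ± 0.16 (adjusted p = 0.087). The groups did not overlap in either gene. With 2 libraries a group the same held for many of the 47 genes, none of them called. Lack of overlap is thus not read as a difference. Without irx3-2 MS replicate 1, the library low for root hair genes, 3 genes were called higher, namely XTH31 (0.70), EXLA1 (0.83) and XTH32 (0.54), where 4.46% of all genes were called. Without irx3-2 MS replicate 2 the calls were XTH13 (-5.86) and XTH26 (-3.40), both lower, where 0.257% of all genes were called. The library left, replicate 1, had 0 reads of XTH13, so that fitted value depends on the pseudocount. EXPA2, known from the endosperm of germinating seeds, was at 0 and 0 in wild type on MS medium and 0.588 and 1.84 on lincomycin (1 and 3 reads). In irx3-2 it had 8.26 and 10.6 on MS medium and 8.52 and 16.3 on lincomycin, above wild type in each library. It passed the filter through irx3-2 libraries alone, so the filter favoured this pattern. Neither difference was called by limma (adjusted p = 0.191 on MS medium and 0.139 on lincomycin).

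On lincomycin 14 of the 47 genes differed between the genotypes (limma), 3 higher and 11 lower in irx3-2, where 5.68% of all tested genes were called, 3.35% higher and 2.33% lower. The median log2 difference was -0.21, against 0.01 over all tested genes. XTH31, XTH32 and EXPA9 were higher. The 11 that were lower were 6 XTH genes (XTH4, XTH6, XTH7, XTH18, XTH22 and XTH27), 4 EXPA genes (EXPA5, EXPA8, EXPA11 and EXPA15) and EXLA1.

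XTH6 differed by -1.24 ± 0.10 on the log2 scale (limma adjusted p = 0.000189), a level 2.36-fold lower in irx3-2. It was the only call of the 14 that held in all 8 fits with a library left out (adjusted p at most 0.0107). EXPA15 had 74.7 and 94.1 normalized counts in wild type and 34.8 and 33.3 in irx3-2 on lincomycin (-1.28 ± 0.25, adjusted p = 0.0157). On MS medium it had 156 and 132 in wild type and 79.9 and 76.1 in irx3-2 (-0.88 ± 0.25, limma adjusted p = 0.214). The genotypes did not overlap on that medium, which is not read as a difference either. EXPA8 differed by -0.97 ± 0.13 (adjusted p = 0.00241), EXLA1 by -0.87 ± 0.16 (adjusted p = 0.0137), XTH22 by -0.86 ± 0.22 (adjusted p = 0.0483) and XTH18 by -0.85 ± 0.15 (adjusted p = 0.00882). XTH4 and XTH7, the 2 most abundant genes, differed by -0.57 and -0.44.

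Among the genes that were higher in irx3-2 on lincomycin, XTH31 had 1009 and 955 normalized counts in wild type and 1695 and 2044 in irx3-2 (0.92 ± 0.13, limma adjusted p = 0.00351). Its clade relative XTH32 had 596 and 576 in wild type and 1006 and 915 in irx3-2 (0.71 ± 0.13, adjusted p = 0.0134). Both were thus higher in every irx3-2 lincomycin library. EXPA9 had 176 and 143 in wild type and 257 and 267 in irx3-2 (0.72 ± 0.17, adjusted p = 0.033). Its values on MS medium were 277 and 240.1 in wild type and 252 and 223 in irx3-2, which overlap. Without wild-type lincomycin replicate 3 only XTH6 of the 14 was called, where 0.573% of all genes were called, and without any other lincomycin library 3 of the 47 were called, where the share of all genes was 0.874% (wild-type replicate 1), 0.711% (irx3-2 replicate 2) and 1.07% (irx3-2 replicate 3). Without wild-type lincomycin replicate 3 the adjusted p was 0.0743 for XTH31, 0.164 for XTH32, 0.317 for EXPA9, 0.209 for EXPA15, 0.0508 for EXPA8, 0.185 for EXLA1, 0.300 for XTH22 and 0.151 for XTH18.

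**Figure D5:**
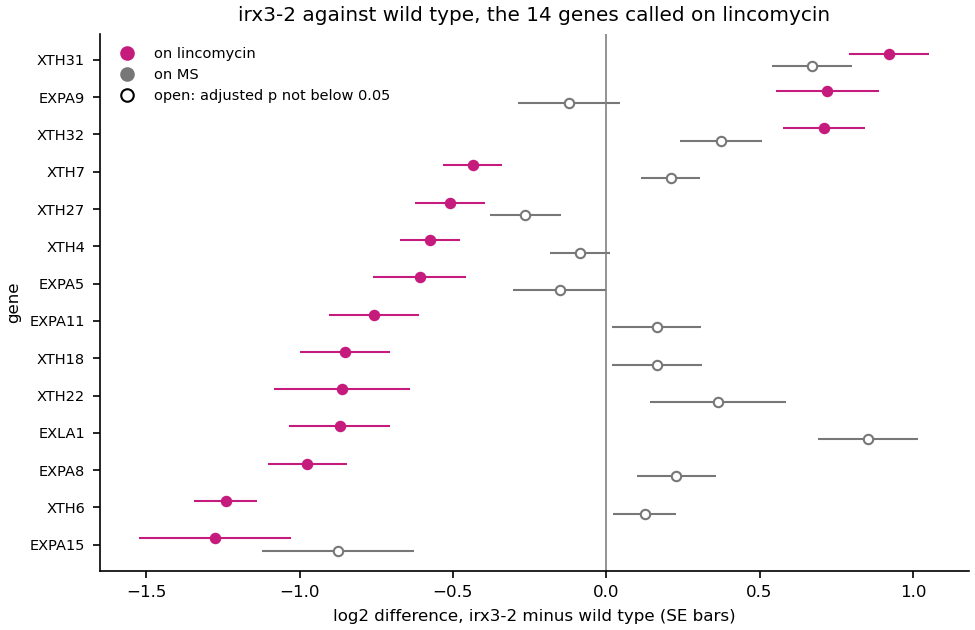
Log2 difference of irx3-2 minus wild type with SE bars for the 14 genes called on lincomycin, on lincomycin in pink and on MS medium in grey, with open points where the adjusted p was not below 0.05. XTH31, EXPA9 and XTH32 lie above 0 on lincomycin, the other 11 below, and no grey point is filled.

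The other tested genes filled in both directions of the lincomycin response or stayed within their spread. XTH17, a root XTH gene, had 395 and 379.7 normalized counts in wild type on MS medium and 205 and 194 on lincomycin, and 419.97 and 453 and then 158 and 172 in irx3-2. Its log2 changes were -0.96 ± 0.14 (limma adjusted p = 0.000413) and -1.40 ± 0.14 (adjusted p = 2.28e-05), with no overlap in either genotype. XTH7 had 4740.2 and 4657 in wild type on MS medium and 3862 and 4152 on lincomycin, which was not called (-0.23, adjusted p = 0.0962). In irx3-2 it fell from 5508 and 5359 to 2786 and 3146 (-0.88 ± 0.10, adjusted p = 4.79e-05), and its interaction of -0.65 ± 0.13 was not called (adjusted p = 0.0669). XTH9, known from shoot meristems and vascular tissue, was called in no comparison, with changes of -0.29 in wild type (adjusted p = 0.0564) and -0.24 in irx3-2 (adjusted p = 0.101). XTH5, XTH10, XTH11, XTH19, XTH33, EXLA2, EXLA3, EXPA2, EXPA4, EXPA10, EXPA13 and EXPA14 were also called in none of the 5 comparisons. Of these XTH33, whose product is anchored in the plasma membrane, ranged from 23 to 58.2 normalized counts over the 8 libraries.

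Genes that act on the same polymers were counted from lists. Of 14 genes of xyloglucan synthesis 2 rose and 1 fell on lincomycin in wild type, and 2 rose and 3 fell in irx3-2, with none called between the genotypes on either medium. FUT1, the xyloglucan fucosyltransferase, had 216 and 125 normalized counts in wild type on MS medium and 343 and 343 on lincomycin (log2 change 1.06 ± 0.23, limma adjusted p = 0.00607), and changed by 0.94 ± 0.23 in irx3-2. XXT1, a xylosyltransferase, rose by 0.56 in wild type, and CSLC12, a glucan synthase of the CSLC family, fell by 1.86. The main backbone synthase CSLC4 fell in irx3-2 alone among the calls (-0.90, adjusted p = 9.26e-05), and its interaction was -0.77 (adjusted p = 0.0548). Of 3 glycosidases that trim xyloglucan, AXY8, a fucosidase, rose in both genotypes (0.63 in wild type and 0.42 in irx3-2), BGAL10 rose in irx3-2 (0.86) and XYL1, a xylosidase, did not pass in either.

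Of 5 plasma membrane proton pump genes 3 fell and 1 rose in wild type on lincomycin, and 2 fell in irx3-2. On lincomycin 1 of the 5 was called lower in irx3-2 than in wild type. AHA2, the main pump of roots, had 9310.2 and 9079.8 normalized counts in wild type on MS medium and 7296 and 6785 on lincomycin (-0.39 ± 0.10, limma adjusted p = 0.0178). AHA7 fell by 2.13 and AHA11 by 1.31 in wild type, and AHA3 rose by 0.46. AHA1, the other abundant pump, did not pass in either genotype (-0.05 and -0.12). Of 8 genes of brassinosteroid synthesis and signalling DWF4, the rate-limiting enzyme of synthesis, fell in both genotypes (-0.73 and -0.91). On lincomycin 1 of the 8 was called higher in irx3-2 than in wild type. CPD, BES1 and BIN2 were called lower in irx3-2 only (-0.86, -1.10 and -0.42), with interactions that were not called (adjusted p = 0.296, 0.0585 and 0.391).

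Markers of other cell types moved as well, and their part in the results above was not tested. Of 4 epidermis markers 3 rose in wild type and 2 in irx3-2 on lincomycin, and their sum was 9471 and 9764 normalized counts in wild type on MS medium against 13438 and 13597 on lincomycin. Of 5 xylem markers 3 fell in wild type and 4 in irx3-2, with sums of 1809 and 1766 on MS medium and 1209 and 1198 on lincomycin in wild type. XTH27 (EXGT-A3), known from developing tracheary elements, fell as well, by 0.47 in wild type and 0.72 in irx3-2. Of 3 phloem markers 2 rose in wild type on lincomycin and 2 were lower in irx3-2 than in wild type on lincomycin. Among 4 markers of root endodermis and stele 2 fell in wild type and 0 were called in irx3-2. On lincomycin 1 of the 4 was called lower in irx3-2 than in wild type. None of 3 guard cell markers was called in any of the 5 comparisons.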

How the data were processed

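RNA sequencing of 8 libraries was used, 2 for each of 4 groups, with groups and replicate numbers from the sample titles. The submitters' processing notes name TAIR10 as the genome, and TopHat2 2.1.1, featureCounts, DESeq2, FastQC and Trimmomatic as tools, without parameters. The authors deposited 4 tables, 1 per pairwise comparison. Per the file headers each holds normalized counts (a signal scaled by a size factor per library) in 8 columns that were identical in the 4 tables. Other deposited columns are, per the file headers, the authors' DESeq2 log2 fold changes and each p-value with its adjusted form, used only for the genes that those tables called. All values were whole multiples of 1 read to within 0.01, so reads were recovered by division.

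Tests were run in R 4.3.3 with limma 3.58.1 (trend option) on log2(normalized count + 1) for 20251 genes, with 4 group means, 4 residual degrees of freedom, and Benjamini-Hochberg adjustment over the genes tested. A log2 change on this scale understates the change of low genes. The limma step was also run on simulated reads with known changes, whose means and spread were taken from these libraries. Alternatives were edgeR 4.0.16 (quasi-likelihood, TMM) and DESeq2 1.42.0 on the recovered reads, a pseudocount of 5, no filter, size factors from nuclear genes, a replicate block and leaving out each library. Where leaving out a library left a group with 1 library, that library was taken to vary like the other groups.

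For each pairwise comparison the 6 largest rises and 6 largest falls among called genes were named, with the 8 highest genes per kb, genes at 0 in every library and genome neighbours of named genes. From the other lists, up to 4 called genes in wild type were named, and other genes were chosen after their values were seen. The genes, lists and rules were all chosen with earlier results of these data known. All 67 genes matched the RefSeq annotation of TAIR10.1, which gave positions, exon lengths, overlaps, shared 50-base windows and upstream sequences. The labels do not say whether replicate numbers pair the libraries, and the main test did not pair them. Counts per library limit low genes, and limits for a count of 0 cover counting error only. No set test and no protein sequence was used.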

Additional observations from a re-analysis of the deposited data

Results flagged for a closer look

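In 4 genes the lincomycin response differed between the genotypes by the interaction term of limma, as the log2 change in irx3-2 minus that in wild type. EXLA1 had an interaction of -1.72 (adjusted p = 0.0101), rising in wild type and falling in irx3-2. XTH6 had -1.37 (adjusted p = 0.00339), with the same opposite calls. EXPA8 had -1.20 (adjusted p = 0.0181), falling in both genotypes and further in irx3-2. TCH3, a calmodulin-like touch gene outside the XTH and expansin families, had -2.43 (adjusted p = 0.00508), falling in irx3-2 only among the calls. Each of the 4 calls was lost in fits without 1 or more single libraries, as given above.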

How the results depend on the processing

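Called genes in the lincomycin comparisons numbered 20 to 28 in wild type and 21 to 26 in irx3-2 under the alternatives. These were edgeR, DESeq2, a pseudocount of 5, no filter, nuclear size factors and the replicate block. The share of all genes called under them was 15.2 to 30.9% in wild type and 19.7 to 34.8% in irx3-2. Between the genotypes on MS medium DESeq2 called 1 gene, where 0.672% of all genes were called. The other alternatives called 0, where 0.0125 to 0.291% of all genes were called. On lincomycin the count of 14 between the genotypes became 9 without the filter and 5 with the replicate block, and the interaction count of 3 became 7 with DESeq2 and 1 (XTH6) with the replicate block. The share of all genes moved too, from 5.68% to 1.81% without the filter and 1.66% with the block on lincomycin, and from 0.657% to 1.86% with DESeq2 and 0.119% with the block for the interaction. Deviations of same-numbered libraries from their group means had correlations of -0.137 to 0.126 (7 pairs). With 2 libraries a group these deviations mirror each other and the pairs are not independent, so a shared batch was not excluded. The block costs 2 of 4 residual degrees of freedom. Leaving out a library at a time gave 16 to 31 calls for lincomycin in wild type, 16 to 26 in irx3-2, 0 to 3 between the genotypes on MS medium, 1 to 17 on lincomycin and 0 to 9 for the interaction. Of the 34 named calls all kept direction and call under edgeR, DESeq2, a pseudocount of 5 and nuclear size factors, 26 without the filter and 23 with the replicate block, and no direction turned. With a library left out 215 fits of named calls kept the call and 57 lost it. The causes were not tested. With some library left out, 13 of the 14 calls between the genotypes on lincomycin and all 3 interaction calls were lost, and genes with under 10 normalized counts in a group are limited by counting.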
